A study of Mus musculus with 8 samples.

Results

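The genes described here are 10 regulators and products of the fat cell programme: Pparg, Cebpa, Cebpb, Cebpd, Zfp423, Ebf2, Fabp4, Lpl, Plin2 and Adipoq. They were taken by gene symbol from the platform annotation of the array, which gave 10 probe sets, 1 for each gene, among 19505 named genes. They were measured in mesenchymal stromal cells of the inguinal fat pad. The donors were 12 months old male FVB mice, and total RNA was put on 8 Affymetrix arrays. In 4 arrays the cells carried the lentiviral plasmid pLKO.1 with a hairpin against Irf7 (shIRF7), in 2 arrays the same plasmid with a scrambled hairpin (scramble), and in 2 arrays the plasmid without a hairpin (empty vector). All 3 groups were therefore infected with a lentivirus, and no uninfected group was analysed here. The culture medium in the labels is high-glucose DMEM with serum and antibiotics, and no adipogenic inducer is named. The labels do not tie replicates to separate mice, cultures or infections, so a p-value reflects only how far these arrays vary, and that variation may be technical.

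Adipogenesis is the path from a stromal progenitor to a lipid-storing fat cell. The factors C/EBP beta and C/EBP delta act early and switch on Pparg and Cebpa, which then maintain each other's expression and activate the genes of the mature fat cell. Zfp423 marks and supports commitment of progenitors to the fat lineage, and Ebf2 marks progenitors that can form thermogenic fat cells. Fabp4, Lpl, Plin2 and Adipoq are products of the programme, and Fabp4, Lpl and Adipoq are textbook targets of Pparg. Fabp4 encodes a carrier of fatty acids, Lpl the lipase that frees fatty acids from circulating lipoproteins, Plin2 a coat protein of lipid droplets, and Adipoq the fat cell hormone adiponectin. Irf7 encodes a transcription factor of the interferon response, and the question addressed is whether these genes differed in cells with the hairpin against it.

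The start regions of 3 of these genes are shown because they stand for the master regulator, a lipid droplet gene detected on every array and a fat cell hormone that was not detected. The RefSeq table of GRCm38.p6 holds 9 start windows for 6 of the 10 genes (Pparg, Cebpa, Cebpb, Zfp423, Plin2 and Adipoq), each with 250 bases before the start and 50 bases after it. Capitals mark matches on either strand to TTGCNNAA, a core of the C/EBP motif, or to AGGTCA, the unit of nuclear receptor motifs such as that of PPAR gamma. The sequences, 5′ to 3′ on the strand of the gene, are as follows.
Pparg, most downstream of its 3 starts, chr6:115421816-115422115, plus strand: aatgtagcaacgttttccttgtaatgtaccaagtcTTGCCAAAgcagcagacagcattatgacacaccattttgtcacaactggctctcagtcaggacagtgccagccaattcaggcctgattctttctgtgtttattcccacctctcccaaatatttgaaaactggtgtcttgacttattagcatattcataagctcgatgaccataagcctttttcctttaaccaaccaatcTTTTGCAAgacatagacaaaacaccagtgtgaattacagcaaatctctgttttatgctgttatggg
Plin2, chr4:86670010-86670309, minus strand: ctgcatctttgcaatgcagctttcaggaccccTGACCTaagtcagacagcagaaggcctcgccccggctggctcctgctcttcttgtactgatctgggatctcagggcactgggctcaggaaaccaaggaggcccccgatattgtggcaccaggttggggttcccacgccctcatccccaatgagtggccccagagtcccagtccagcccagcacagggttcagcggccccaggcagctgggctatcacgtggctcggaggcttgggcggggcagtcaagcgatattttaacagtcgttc
Adipoq, chr16:23146286-23146585, plus strand: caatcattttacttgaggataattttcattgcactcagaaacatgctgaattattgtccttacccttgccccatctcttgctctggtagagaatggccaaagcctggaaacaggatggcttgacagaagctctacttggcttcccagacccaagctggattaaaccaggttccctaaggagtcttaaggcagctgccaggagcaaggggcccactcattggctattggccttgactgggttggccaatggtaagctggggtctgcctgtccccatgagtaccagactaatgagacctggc
The downstream Pparg window holds the C/EBP letters at 2 places, with first bases at -215 and -16 from the start, and TTGCNNAA occurs in 2 of the 9 windows against 10.8% of 32851 windows of the same length in the table. The Plin2 window holds AGGTCA on the other strand at -218. That motif occurs in 4 of the 9 windows against 16.3% of all windows. The Adipoq window holds neither. A pair of GAAA copies 2 bases apart, a core of the motif bound by interferon regulatory factors, occurs in 0 of the 9 windows on either strand and in 3.44% of all windows. The motifs searched do not overlap in these windows, a match describes letters only, and the absence of a match says only that these letters are not in this window.

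Irf7, the gene targeted by the hairpin, measured 4.42, 5.66, 6.47 and 6.79 on the log2 scale in shIRF7 replicates 1 to 4, against 9.56 and 9.76 with scramble and 9.55 and 9.61 with empty vector. A gene is called above background on an array when it exceeded the 95th percentile of that array's 5222 negative control probe sets, a level of 7.93 to 8.72 on the log2 scale over the 8 arrays. By that measure 31.6% to 36.8% of named genes were above background per array. Negative controls set replicate 1 apart from replicate 2. Their medians were 4.18, 4.26 and 4.21 in replicate 1 of shIRF7, scramble and empty vector, and 4.56, 4.56 and 4.55 in replicate 2. In shIRF7 replicate 3 the median was 4.54, near replicate 2, and in shIRF7 replicate 4 it was 4.33, between these levels. Values within replicate 1 and within replicate 2 are given for the 10 genes and for most other genes named, without a test because each rests on 1 array per group. The numbers are not taken to pair shIRF7 with the controls. Differences between replicates 1 and 2 correlated over genes at r = 0.76 between scramble and empty vector. With shIRF7 r was -0.21 for scramble and -0.29 for empty vector. Scramble and empty vector arrays of the same number thus shared differences that the main fit does not take into account. Signs within replicates 1 and 2 therefore describe these arrays and are not read as an effect of the hairpin. Arrays also differed in genes of cell division: the mean log2 value of 11 mitosis genes was 11.88, 11.08, 11.14 and 11.59 in shIRF7 replicates 1 to 4, 10.68 and 12.57 with scramble, and 8.47 and 12.52 with empty vector. The part of either pattern in the results below was not tested, and in RNA from a whole culture fewer cells of a type and less RNA per cell cannot be told apart.

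Of the 10 genes, 5 were above background on all 8 arrays (Pparg, Cebpd, Ebf2, Lpl and Plin2), 2 on some arrays (Cebpa and Fabp4) and 3 on no array (Cebpb, Zfp423 and Adipoq). In shIRF7 against both controls 0 of the 10 passed an adjusted p of 0.05 in limma, which tested all 19505 genes with Benjamini-Hochberg adjustment and called 0.0308% of them. Irf7 itself differed by -3.79 (SE 0.48) and missed that threshold too (limma adjusted p = 0.0692). Its limma adjusted p was 0.238 against scramble and 0.252 against empty vector. A gene that missed the threshold is therefore not shown to be unchanged. At an unadjusted p under 0.05 there was 1 of the 10, Ebf2, where 8.12% of all genes reached that level. That count was 3 without shIRF7 replicate 1 (of all 19505 genes, 2263 reached that level) and 3 without empty vector replicate 2 (2141). With the controls merged into 1 group it was also 3 (1742), and without scramble replicate 2 it was 0 (1268). With cyclic loess it was 2, Pparg and Ebf2 (1560). It was again 1 without empty vector replicate 1 (2128), but the gene was then Pparg, not Ebf2. All 4 shIRF7 values lay above all 4 control values for 2 of the 10, Ebf2 and Adipoq, against 2.58% of all genes, and below them for 0 of the 10, against 2.8% (5.38% for either direction). Adipoq did so below background, so that only Ebf2 combined separate groups with a signal above background. Among the 5579 genes above background on every array 4.19% had all shIRF7 values above the controls.

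**Figure D1:**
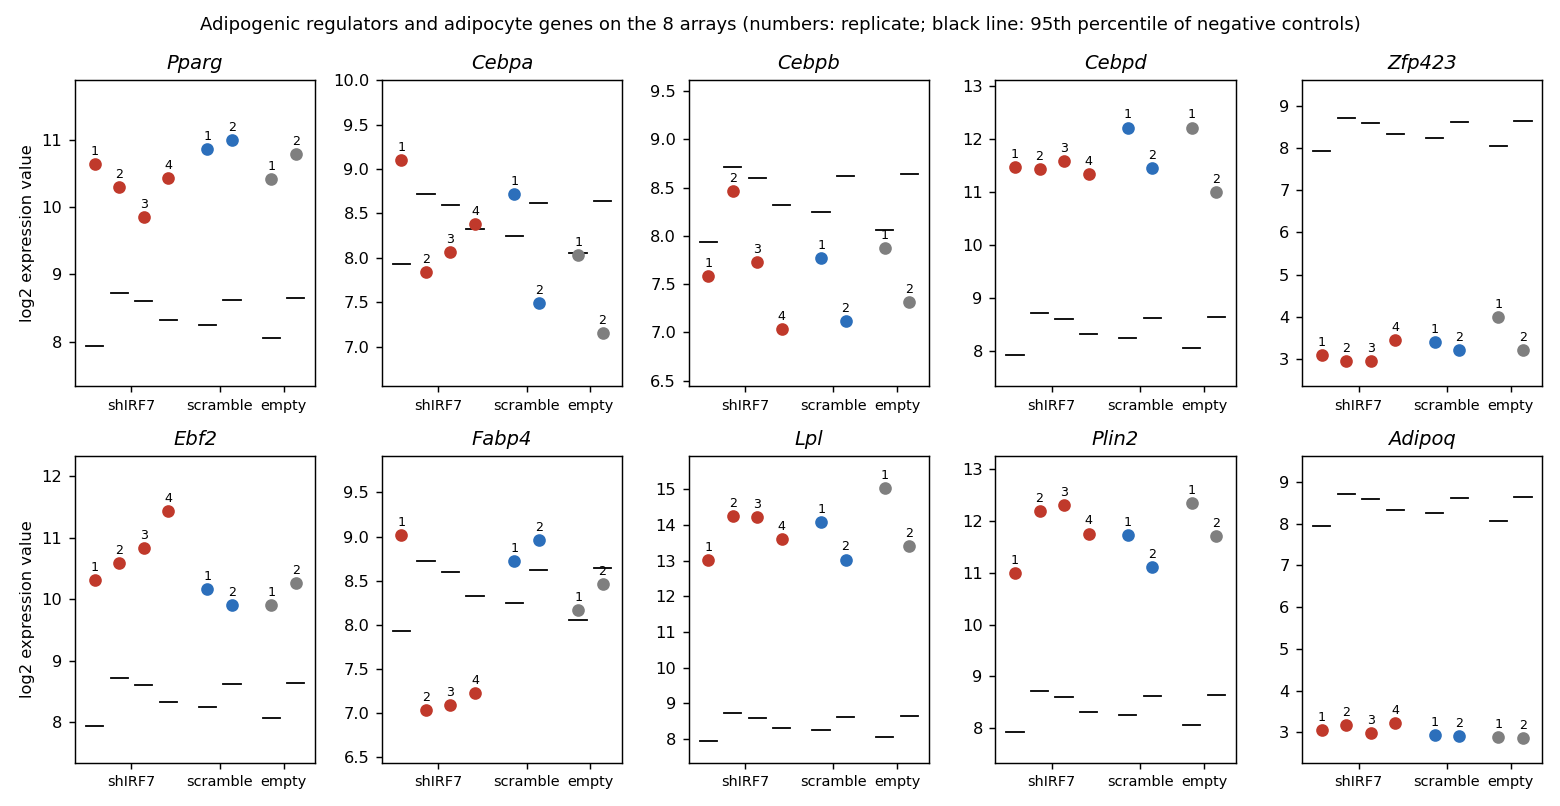
Log2 expression value (vertical axis) of each of the 10 genes on every array, with shIRF7 in red, scramble in blue and empty vector in grey; numbers give the replicate and the black line is the 95th percentile of that array's negative controls. Ebf2 lies above every control in all 4 shIRF7 arrays, Fabp4 is low in shIRF7 replicates 2 to 4 only, and Zfp423 and Adipoq stay far below the black lines.

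Among the early factors, Cebpb encodes C/EBP beta and is induced within hours when adipogenesis is triggered. It measured 7.59, 8.46, 7.73 and 7.04 in shIRF7 replicates 1 to 4, against 7.77 and 7.11 with scramble and 7.87 and 7.32 with empty vector. The groups overlapped fully, with shIRF7 replicates 2 and 4 holding the highest and the lowest of the 8 values, all of them below the background level. All 8 lay above the medians of the negative controls, which ran from 4.18 to 4.56. The log2 difference was 0.18 (SE 0.32, 95% interval -0.57 to 0.93, limma adjusted p = 0.941), and it was -0.24 within replicate 1 and 1.25 within replicate 2.

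Cebpd, which encodes the other early factor C/EBP delta, was well above background. It measured 11.47, 11.43, 11.58 and 11.33 in shIRF7 replicates 1 to 4, against 12.21 and 11.45 with scramble and 12.21 and 10.99 with empty vector. The shIRF7 arrays lay close together and inside the range of the controls, in which both replicate 1 arrays were the highest. The log2 difference was -0.26 (SE 0.29, 95% interval -0.93 to 0.41, limma adjusted p = 0.889). Replicate 1 alone gave -0.74 and replicate 2 alone 0.21.

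The commitment factors behaved differently from each other. Zfp423, a zinc finger protein of committed preadipocytes, measured 3.10, 2.95, 2.97 and 3.45 in shIRF7 replicates 1 to 4, against 3.41 and 3.22 with scramble and 4.01 and 3.21 with empty vector. All these values lie below the median of the negative controls, so its log2 difference of -0.35 (SE 0.21, limma adjusted p = 0.758) says little about a transcript level. Replicate 1 alone gave -0.61 and replicate 2 alone -0.26. Ebf2, an early B cell factor that opens the way to the thermogenic fat lineage, measured 10.31, 10.59, 10.83 and 11.43 in shIRF7 replicates 1 to 4, against 10.16 and 9.91 with scramble and 9.90 and 10.27 with empty vector. Every shIRF7 array was above every control, although shIRF7 replicate 1 exceeded the highest control, empty vector replicate 2, only slightly. The means were 10.79 ± 0.48 in shIRF7 and 10.06 ± 0.18 in the controls (SD, n = 4 each).

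The log2 difference of Ebf2 was 0.73 (SE 0.25, 95% interval 0.14 to 1.32), or 1.66-fold. It missed the threshold in limma (adjusted p = 0.527), and 0.28 and 0.49 were measured within replicates 1 and 2. The same direction held against each control: 0.75 against scramble (SE 0.31) and 0.70 against empty vector (SE 0.31). Those comparisons share the shIRF7 arrays and are not independent. The controls themselves differed by -0.05 for scramble minus empty vector (SE 0.36). The difference of Ebf2 was 0.51 without shIRF7 replicate 4, its highest array, and 0.89 without shIRF7 replicate 1.

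Pparg, the nuclear receptor that drives the programme, was above background on every array. It measured 10.64, 10.29, 9.85 and 10.43 in shIRF7 replicates 1 to 4, against 10.86 and 10.99 with scramble and 10.42 and 10.79 with empty vector. The shIRF7 arrays overlapped the controls: 2 of them, replicates 2 and 3, lay below every control, while replicates 1 and 4 lay between the controls. All 4 were below both scramble arrays. The means were 10.30 ± 0.33 in shIRF7 and 10.76 ± 0.25 in the controls (SD, n = 4 each).

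The log2 difference of Pparg was -0.46 (SE 0.20, 95% interval -0.93 to 0.0036, limma adjusted p = 0.619). It was -0.62 against scramble (SE 0.25, adjusted p = 0.775) and -0.30 against empty vector (SE 0.25, adjusted p = 0.946). Within replicate 1 it was -0.00047 and within replicate 2 it was -0.59. The array has 1 probe set for Pparg, so these values do not separate its isoforms Pparg1 and Pparg2, which start at different promoters.

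Cebpa, the partner of Pparg in holding the fat cell state, measured 9.11, 7.84, 8.07 and 8.38 in shIRF7 replicates 1 to 4, against 8.72 and 7.49 with scramble and 8.03 and 7.15 with empty vector. Its highest values were in shIRF7 replicate 1 and scramble replicate 1, and the groups overlapped. Only those arrays and shIRF7 replicate 4 were above background. The log2 difference was 0.50 (SE 0.38, 95% interval -0.39 to 1.39, limma adjusted p = 0.824). It was 0.73 within replicate 1 and 0.52 within replicate 2, the only gene besides Ebf2 and Adipoq that was higher in shIRF7 within both. The size depended on single arrays: the difference was 0.81 when scramble replicate 1 was left out, 0.19 for scramble replicate 2, 0.25 for shIRF7 replicate 1 and 0.28 for empty vector replicate 2.

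Among the products, Fabp4 had the largest difference of the 10 genes. It measured 9.01, 7.03, 7.09 and 7.23 in shIRF7 replicates 1 to 4, against 8.73 and 8.97 with scramble and 8.16 and 8.46 with empty vector. In shIRF7 replicates 2, 3 and 4 Fabp4 was below every control and below background, while replicate 1 was the highest of the 8 arrays. The means were 7.59 ± 0.95 in shIRF7 and 8.58 ± 0.35 in the controls (SD, n = 4 each).

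Over all 8 arrays the log2 difference of Fabp4 was -0.99 (SE 0.44, 95% interval -2.01 to 0.038, limma adjusted p = 0.629). Without shIRF7 replicate 1 the mean of the other 3 shIRF7 arrays was 7.12 ± 0.10 (SD, n = 3) and the difference was -1.46 (SE 0.16, 95% interval -1.84 to -1.08). No fold is given, because Fabp4 was below background on all 3 of these shIRF7 arrays and on empty vector replicate 2. Fabp4 then passed the limma threshold (adjusted p = 0.0494) in a fit that called 0.144% of all genes. This was the only fit of the 8 that each left out 1 array in which any of the 10 genes passed. Within replicate 1 the difference was 0.57 and within replicate 2 it was -1.68, in opposite directions. Against scramble it was -1.25 (SE 0.54, adjusted p = 0.812) and against empty vector -0.72 (SE 0.54, adjusted p = 0.932).

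Fabp5, the related carrier that fat cells and many other cells make, gave a like order among the shIRF7 arrays. It measured 11.225, 9.185, 9.47 and 9.82 in shIRF7 replicates 1 to 4, against 10.11 and 10.65 with scramble and 9.52 and 10.63 with empty vector. Its values in shIRF7 replicates 2 and 3 lay below every control and that in replicate 1 above every control, and the difference was -0.30 (limma adjusted p = 0.932), with 1.41 in replicate 1 alone and -1.45 in replicate 2 alone. Fabp5 was picked out after its values were seen, as the family member nearest to Fabp4 among the genes listed.

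Lpl, the lipoprotein lipase, was far above background on every array. It measured 13.02, 14.24, 14.23 and 13.60 in shIRF7 replicates 1 to 4, against 14.09 and 13.03 with scramble and 15.03 and 13.41 with empty vector. The highest array was empty vector replicate 1, and the lowest were shIRF7 replicate 1 and scramble replicate 2, so the groups overlapped fully. The log2 difference was -0.12 (SE 0.45, 95% interval -1.16 to 0.93, limma adjusted p = 0.978). It was -1.54 within replicate 1 and 1.02 within replicate 2. Among genes above background on all arrays 11.8% had a range over the 8 arrays at least as wide as that of Lpl.

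Plin2, the droplet coat protein found in many cell types, measured 10.99, 12.19, 12.31 and 11.76 in shIRF7 replicates 1 to 4, against 11.74 and 11.12 with scramble and 12.35 and 11.71 with empty vector. It had the same extremes as Lpl: empty vector replicate 1 was again the highest, and shIRF7 replicate 1 and scramble replicate 2 were again the lowest. The log2 difference was 0.084 (SE 0.33, 95% interval -0.68 to 0.85, limma adjusted p = 0.979). Replicate 1 alone gave -1.05 and replicate 2 alone 0.78. Its sign turned without several single arrays, so no direction is given.

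Adipoq, a hormone made by mature fat cells, measured 3.06, 3.17, 2.99 and 3.23 in shIRF7 replicates 1 to 4, against 2.94 and 2.91 with scramble and 2.90 and 2.87 with empty vector. All 8 values lay below the medians of the negative controls. The shIRF7 values were all above the controls, by a log2 difference of 0.21 (SE 0.12, limma adjusted p = 0.751), and no fold is given for a gene at this level. Replicate 1 alone gave 0.13 and replicate 2 alone 0.28.

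**Figure D2:**
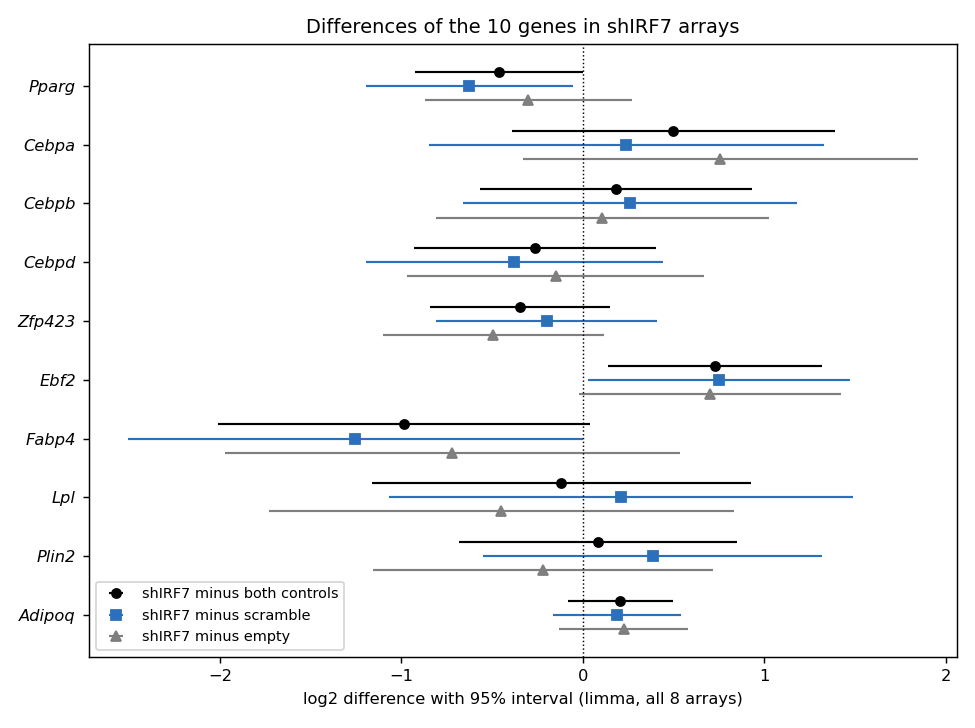
Log2 difference (horizontal axis) of each of the 10 genes with its 95% interval from limma over all 8 arrays, for shIRF7 minus both controls (black), minus scramble (blue) and minus empty vector (grey). Only the intervals of Ebf2 (against both controls and against scramble) and of Pparg (against scramble) leave out 0 before adjustment.

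Set against each control on its own, 0 of the 10 genes passed in limma. Against scramble 2 of the 10, Pparg and Ebf2, had an unadjusted p under 0.05, where 6.14% of all genes did and 0.00513% passed after adjustment. Against empty vector 0 of the 10 had an unadjusted p under 0.05, where 5.84% of all genes did and 0% passed after adjustment. Scramble against empty vector gave 0 of the 10 at either level, with 1.93% of all genes under the unadjusted level. The 3 comparisons of shIRF7 share the shIRF7 arrays, and that with both controls shares its control arrays with the others. For Lpl and Plin2 the sign depended on the control: Lpl differed by 0.21 against scramble and -0.45 against empty vector, and Plin2 by 0.39 and -0.22. Scramble minus empty vector was -0.66 for Lpl (SE 0.64) and -0.60 for Plin2 (SE 0.47). These differences follow from those just given and are not a separate observation. Within replicates 1 and 2 scramble minus empty vector was -0.94 and -0.37 for Lpl, and -0.62 and -0.59 for Plin2. Neither the SE nor the share of genes under the unadjusted level accounts for what control arrays of the same number share.

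**Figure D3:**
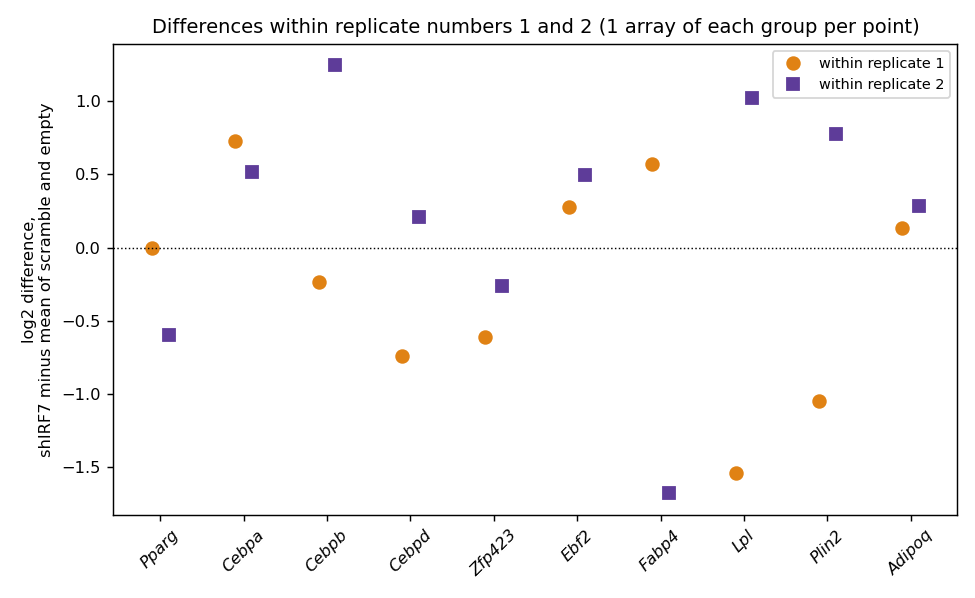
Log2 difference of shIRF7 minus the mean of scramble and empty vector (vertical axis) for each of the 10 genes, within replicate 1 (orange circles) and within replicate 2 (purple squares), from 1 array of each group. Replicate numbers are not taken to pair shIRF7 with the controls. Cebpa, Ebf2 and Adipoq lie above 0 in both, Pparg and Zfp423 at or below 0 in both, and the other 5 on opposite sides.

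The values of Lpl, Plin2 and Cebpd over the arrays ran against those of the mitosis genes. Empty vector replicate 1, with the lowest mitosis mean (8.47), had the highest Lpl and Plin2. Scramble replicate 2, with the highest mitosis mean (12.57), had Lpl at 13.03 and Plin2 at 11.12, each the lowest but for shIRF7 replicate 1. Over the 8 arrays Pearson's r with the mitosis mean was -0.91 for Lpl, -0.82 for Cebpd, -0.71 for Zfp423 and -0.68 for Plin2. It was -0.53 for Cebpb, -0.24 for Cebpa, 0.09 for Adipoq, 0.20 for Ebf2, 0.21 for Fabp4 and 0.36 for Pparg. Zfp423, Cebpb and Adipoq were above background on no array. With Zfp423 a coefficient of the size of that of Plin2 thus also occurred without a detected signal. The coefficients of Lpl and Cebpd were larger in size than those of these undetected genes. These coefficients describe 8 arrays that share groups and replicate numbers, and no test was made of them. The median difference of the mitosis genes was 2.28 within replicate 1 and -1.56 within replicate 2, opposite in sign to Lpl in each, with 0 of 11 past the limma threshold and 0 of 11 at an unadjusted p under 0.05.

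**Figure D4:**
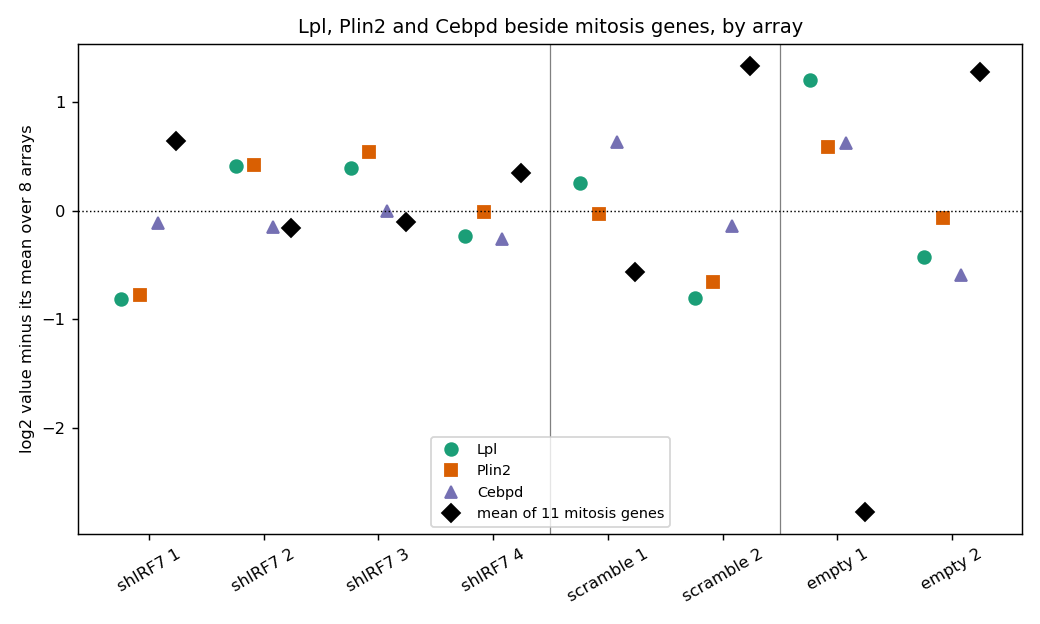
Log2 value minus its own mean over the 8 arrays (vertical axis) for Lpl, Plin2, Cebpd and the mean of 11 mitosis genes on each array. Empty vector replicate 1 has the lowest mitosis mean, 8.47, and the highest Lpl, 15.03; scramble replicate 2 has the highest mitosis mean, 12.57, with Lpl at 13.03.

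The 10 genes did not move as a block. Lpl and Plin2 followed each other over the 8 arrays (r = 0.91), and Pparg and Fabp4 did so as well (r = 0.83). Plin2 ran against Pparg (r = -0.72) and against Fabp4 (r = -0.74), and Ebf2 ran against Fabp4 (r = -0.74). Cebpa had r of -0.09 with Pparg. All these are descriptions over 8 arrays.

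For the 5 genes above background on every array, the named genes with the most similar pattern were looked for among 3530 others above background on all arrays. Pparg was most like Larp4b (r = 0.97), Mapk6 (0.95) and Bzw2 (0.95). Larp4b measured 10.18, 9.70, 9.39 and 9.94 in shIRF7 replicates 1 to 4, against 10.22 and 10.48 with scramble and 10.06 and 10.19 with empty vector, and so had its lowest values in the same arrays as Pparg. Ebf2 was most like Vps25 (0.95), Lin37 (0.95) and Dhrs11 (0.95). Cebpd was most like Amot, Med13 and Zbtb44 (0.97, 0.97 and 0.96), Lpl like Dcaf6, Lix1l and Arhgef25 (0.99, 0.99 and 0.98), and Plin2 like Arhgap28, Zcchc24 and Cd34 (0.98, 0.97 and 0.97). These coefficients were the highest of many over only 8 arrays and are given as likeness only.

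Other regulators that favour adipogenesis were measured by 18 genes, with a median log2 difference of -0.013 beside 0.0017 over all genes. In limma 0 rose and 0 fell, and at an unadjusted p under 0.05 there were 2 lower (4.1% of all genes were) and 0 higher (4.01%). Klf4, a Kruppel-like factor that acts on Cebpb early in adipogenesis, measured 8.92, 8.32, 8.78 and 7.84 in shIRF7 replicates 1 to 4, against 10.31 and 9.14 with scramble and 9.63 and 8.87 with empty vector. Klf4 was lower in 3 of the shIRF7 arrays than in every control and differed by -1.02 (SE 0.35, adjusted p = 0.517), with -1.05 and -0.69 within replicates 1 and 2. Klf5, a factor that activates Pparg, was the other gene under that level: it differed by -1.61 (adjusted p = 0.611), with 0.57 and -2.91 within replicates 1 and 2, and was above background on no array. Egr2, a zinc finger factor upstream of Cebpb, differed by -1.64 (SE 1.13, adjusted p = 0.794), and Klf9 by -0.67 (SE 0.45, adjusted p = 0.788). Within replicates 1 and 2 Egr2 differed by -0.67 and -2.24, and Klf9 by -2.01 and 0.15. Egr2 was low in shIRF7 replicates 2 and 3 (9.08 and 8.65) and not in replicates 1 and 4 (12.82 and 12.53).

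Genes that hold adipogenesis back were measured by 17 genes, with a median of -0.10. In limma 0 rose and 0 fell, with 1 lower at an unadjusted p under 0.05, where 4.1% of all genes were. That gene was Ccn5, a secreted matricellular protein that restrains commitment of preadipocytes. Ccn5 measured 14.35, 13.70, 13.47 and 12.91 in shIRF7 replicates 1 to 4, against 15.44 and 15.10 with scramble and 14.47 and 14.23 with empty vector. The shIRF7 values lay below both scramble arrays, and replicate 1 overlapped the empty vector arrays. The difference was -1.20 (SE 0.30, adjusted p = 0.317), -0.60 within replicate 1 and -0.96 within replicate 2. Smad3, the TGF-beta signal carrier, was the 1 gene of this list with all shIRF7 values below all controls, as had 2.8% of all genes. Smad3 differed by -0.56 (SE 0.24, adjusted p = 0.626), with -0.90 and -0.23 within replicates 1 and 2. Zfp521, a repressor of Zfp423, differed by 0.60 (SE 0.46, adjusted p = 0.819), while replicate 1 alone gave -0.83 and replicate 2 alone 1.49. Dlk1, the classical marker of preadipocytes also called Pref-1, differed by 0.16 (adjusted p = 0.970) and was named after its values were seen.

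Genes of the mature fat cell were mostly dark. Of 17 measured, 15 were above background on no array, among them Plin1, Cidec, Lep and Slc2a4, which encode a droplet coat protein, a droplet fusion protein, leptin and the insulin-responsive glucose transporter. The median difference was 0.048, with 0 genes past the limma threshold and 0 at an unadjusted p under 0.05. Aoc3, an amine oxidase of fat cells and vessel walls, was the only gene of the list above background on all arrays and differed by 0.04 (SE 0.43, adjusted p = 0.989). The mean log2 value of the list ran from 4.43 to 4.67 in shIRF7 and from 4.21 to 4.86 in the controls. Thermogenic fat cell genes, Ucp1 included, were above background on no array in 9 of 9 genes, with a median difference of 0.11 and a mean log2 value of 3.53 to 3.88 in shIRF7 and 3.44 to 3.70 in the controls. The higher Ebf2 values in shIRF7 thus stood beside thermogenic genes that were not detected.

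Lipid handling genes, which take up fatty acids, make triglyceride or act on droplets and lipases, were measured by 22 genes with a median difference of 0.014. In limma 0 rose and 0 fell, with 2 higher at an unadjusted p under 0.05, where 4.01% of all genes were. Lmf1, which matures lipoprotein lipase in the endoplasmic reticulum, measured 11.29, 11.75, 11.91 and 11.94 in shIRF7 replicates 1 to 4, against 11.12 and 10.68 with scramble and 10.72 and 10.67 with empty vector. Every shIRF7 value of Lmf1 was above every control, and the difference was 0.92 (SE 0.19, adjusted p = 0.227). Replicate 1 alone gave 0.37 and replicate 2 alone 1.07. The lipase itself, Lpl, showed no such separation. Abhd5, the co-activator of droplet lipolysis, was the other gene of this list with all shIRF7 values above all controls, by a difference of 0.21 (adjusted p = 0.774). Of all genes 2.58% had all shIRF7 values above all controls. Lpin1, a phosphatidate phosphatase that also aids Pparg, differed by 1.06 (SE 0.43, adjusted p = 0.587). Replicate 1 alone gave -0.38 and replicate 2 alone 2.02. Angptl4, an inhibitor of lipoprotein lipase, differed by -0.42 (SE 0.33, adjusted p = 0.828), with -1.37 and -0.09 within replicates 1 and 2. Angptl4 was low in shIRF7 replicate 1 (9.97) and lay between 11.09 and 11.59 on the other 7 arrays.

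**Figure D5:**
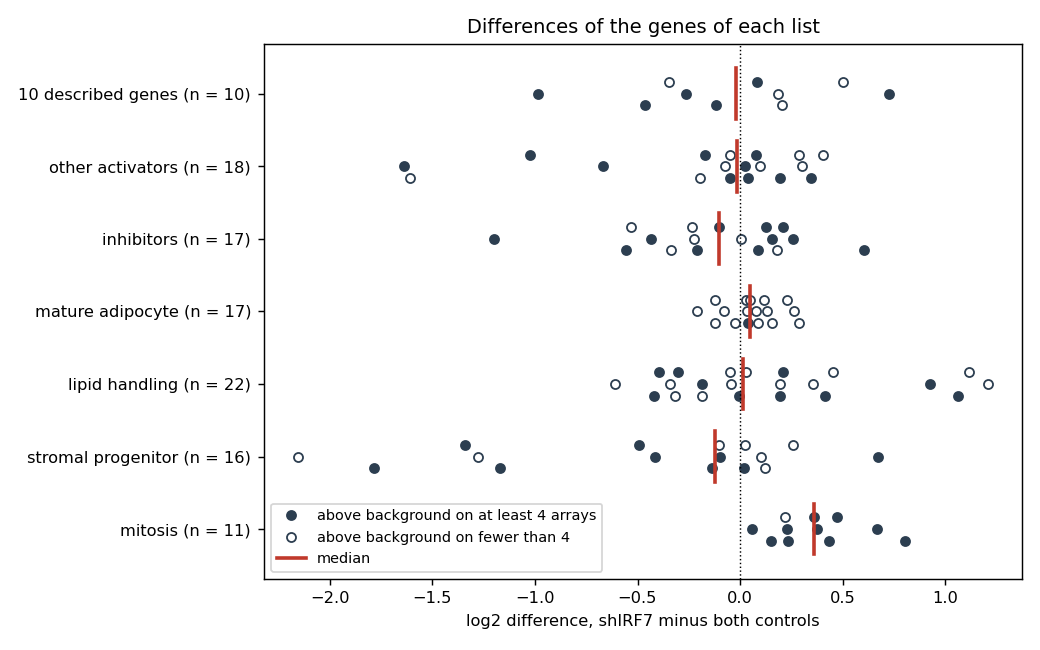
Log2 difference of shIRF7 minus both controls (horizontal axis) for each gene of the described set and of 6 related lists; filled points were above background on at least 4 arrays, open points on fewer, and red bars mark medians. Medians lie between -0.12 and 0.36, and 0 genes of these lists passed the limma threshold.

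The stromal label of the cells was checked against markers. Of 16 progenitor genes measured, 8 were above background on all arrays, among them Pdgfrb, Cd34, Eng, Cd44 and Itgb1, while Dpp4, Pi16, Icam1 and Nt5e were on none. Their median difference was -0.12, with 0 past the limma threshold. At an unadjusted p under 0.05 there were 4 lower (4.1% of all genes were) and 1 higher (4.01%). The mean log2 value of the list ran from 9.05 to 9.55 in shIRF7 and from 9.54 to 10.10 in the controls, a narrow overlap with shIRF7 lower. Cd24a, a marker of early fat progenitors, differed by -1.79 (SE 0.73, adjusted p = 0.592), Cd44, the hyaluronan receptor, by -1.34 (SE 0.47, adjusted p = 0.525), and Anxa3 by -1.17 (SE 0.45, adjusted p = 0.572). Cd44 and Anxa3 had opposite signs within replicates 1 and 2, at 0.21 and -2.44 for Cd44 and 0.31 and -1.73 for Anxa3, while Cd24a had -0.47 and -2.82. The other genes under that level were Thy1 (-2.15, adjusted p = 0.501), lower, and Vcam1 (0.67, adjusted p = 0.578), higher. Thy1, a marker of mesenchymal stromal cells, was above background on 2 arrays only. Within replicates 1 and 2 Thy1 differed by -2.16 and -2.72, and Vcam1 by -0.07 and 0.85. Anxa3 measured 13.90, 11.95, 11.77 and 12.23 in shIRF7 replicates 1 to 4, against 13.91 and 13.78 with scramble and 13.27 and 13.58 with empty vector. For Anxa3 shIRF7 replicate 1 lay inside the range of the controls and the other 3 below them. For Fabp4 the other 3 were likewise below the controls, but replicate 1 was above every control.

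Markers of other cells that a fat pad could hold were near the floor. Macrophage genes were above background on no array in 11 of 11, endothelial genes in 8 of 8, lymphocyte genes in 7 of 7, mesothelial genes in 5 of 5 and myogenic genes in 4 of 4. Mean log2 values in shIRF7 and the controls were 3.48 to 3.63 and 3.45 to 3.74 for genes of macrophages, which can also make Fabp4, and 3.74 to 4.09 and 3.62 to 3.97 for endothelial genes. They were 3.505 to 3.648 and 3.502 to 3.764 for lymphocyte genes, 3.225 to 3.611 and 3.613 to 3.915 for mesothelial genes, and 3.07 to 3.38 and 3.16 to 3.35 for myogenic genes. The mesothelial means just missed overlapping, lower in shIRF7, with Krt19, a keratin of mesothelium, at a difference of -1.75 (adjusted p = 0.383; -0.18 and -3.04 within replicates 1 and 2) below background on every array; its part in the results was not tested. Medians of the differences lay at -0.022, 0.13, -0.11, 0.0026 and -0.0028 in the same order of lists. Mural genes differed between arrays: Acta2, smooth muscle actin, measured 18.62, 16.33, 16.28 and 18.00 in shIRF7 replicates 1 to 4, against 18.17 and 18.11 with scramble and 17.75 and 17.89 with empty vector. Acta2 was thus low in shIRF7 replicates 2 and 3, where Fabp4 and Pparg were lowest, and its part in those values was not tested. Mcam, a surface protein of pericytes, was 10.68 in shIRF7 replicate 1, where Fabp4 was highest, and between 4.16 and 6.41 on the other 7 arrays, below background; its part was not tested either. The mural list as a whole had a median difference of -0.057 over 8 genes, 6 of which were above background on no array, and a mean of 5.07 to 6.70 in shIRF7 and 5.37 to 5.83 in the controls.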

How the data were processed

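Total RNA of 8 samples was profiled on Affymetrix arrays. The deposited log2 values, 1 per probe set and array, come from RMA, which corrects background, normalizes across arrays and summarises probes. The submitters' processing notes name Expression Console 1.4.1.46. Deposited values ran from 1.66 to 18.9, as log2 values do. No genome build of the array's design is given by the labels or file headers used here. The platform annotation named 1 gene symbol for 19572 of 28846 probe sets, several for 0 and none for 9274. Current symbols came from a RefSeq table of GRCm38.p6, in which all 19572 gene identifiers were found. For 55 genes with several probe sets the brightest was kept, which left 19505 genes. No array column was unused (0).

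A linear model with 3 group means was fitted over the 8 arrays by lmFit and eBayes of limma 3.58.1 (R 4.3.3), leaving 5 residual degrees of freedom beside 2.68 from the prior. In 4 contrasts shIRF7 was set against both controls (their 2 group means weighted alike), against scramble alone and against empty vector alone, and scramble was set against empty vector. Each contrast had Benjamini-Hochberg adjustment over all genes and a threshold of 0.05. SE is the moderated standard error, and precision is limited by how many arrays there are. Simulated data with known changes served to test the code. Of 165 genes in 13 further lists 153 were measured and 12 are not analysed here. No test was made over the 10 genes or over a list.

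The genes named were the 10 members and Irf7; per list the genes past the threshold, otherwise the 3 largest differences among genes above background on at least 4 arrays; and per member above background on all arrays the 3 genes of highest Pearson r with an SD of at least 0.3. Fabp5, Dlk1, Krt19, Mcam and the genes that make up a small count (Klf5, Abhd5, Thy1, Vcam1) were added after their values were seen, as were examples of genes detected or not. Members, lists and rules were chosen with earlier results of these data known. The alternatives were a dim filter (genes above background on at least 2 arrays), trend and robust options in eBayes, cyclic loess, averaged probe sets per gene, the controls merged into 1 group, a block for the replicate number and leaving out each array. Averaging shIRF7 replicates 2 and 3 was added after the data were seen.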

Additional observations from a re-analysis of the deposited data

Results flagged for a closer look

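Among 40 named genes and list means, 2 had a shIRF7 array that stood far from the other 3 by Dixon's criterion, which chance meets in about 1 of 20 groups, or 5%. Fabp4 was 9.01 in shIRF7 replicate 1 and 7.03 to 7.23 in the others, a gap of 0.90 of the whole range. The mean of the genes that hold adipogenesis back was 9.91 in shIRF7 replicate 1 and 9.68 to 9.72 in the others, a gap of 0.84 of the range.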

How the results depend on the processing

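In shIRF7 against both controls 6 genes of 19505 passed; the count was 3 with trend and robust fitting, 28 with both controls as 1 group, 0 with the replicate block (691 at an unadjusted p under 0.05), 0 with shIRF7 replicates 2 and 3 averaged (1051), and 0 to 28 when 1 array was left out (28 without shIRF7 replicate 1, 0 without shIRF7 replicate 2 or 3 or either scramble array). Against scramble the count was 1, and 0 with the dim filter (539), trend and robust fitting (1126), the replicate block (563) or the averaged pair (875), and 0 to 8 when 1 array was left out. Against empty vector it was 0 (1139), and 0 to 3 when 1 array was left out. Of the 10 genes, 0 to 1 passed against both controls when 1 array was left out, the 1 being Fabp4 without shIRF7 replicate 1 (-1.46, adjusted p = 0.0494); its adjusted p lay between 0.508 and 1.00 under its other alternatives. The pair of most alike arrays, shIRF7 replicates 2 and 3, differed with an SD of 0.322 over genes, as little as empty vector and scramble replicate 2 (0.325).

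Pparg, Cebpa (0.19 to 0.81 when 1 array was left out), Zfp423, Ebf2, Fabp4 and Adipoq kept their direction against both controls under every alternative that could be run, and Cebpb, Zfp423 and Adipoq had no value under the dim filter. Directions turned when 1 array was left out for the following differences. Against both controls Cebpb ran from -0.068 to 0.41, Cebpd from -0.57 to 0.042, Lpl from -0.53 to 0.29 and Plin2 from -0.081 to 0.36. Against scramble Cebpa ran from -0.37 to 0.85, Cebpb from -0.070 to 0.59, Cebpd from -0.76 to 0.0062 and Lpl from -0.32 to 0.74. Against empty vector Cebpb ran from -0.17 to 0.39, Cebpd from -0.76 to 0.46, Lpl from -1.26 to 0.37 and Plin2 from -0.54 to 0.11. For scramble minus empty vector Irf7 ran from -0.024 to 0.18, Cebpa from -0.096 to 1.13, Cebpb from -0.48 to 0.18, Cebpd from -0.38 to 0.84, Zfp423 from -0.69 to 0.11, Ebf2 from -0.23 to 0.13 and Lpl from -1.47 to 0.15. Plin2 against both controls was -0.14 with the replicate block and -0.061 with the averaged pair, and Cebpb against empty vector was -0.022 with that pair. Medians of lists turned as well when 1 array was left out: mitosis genes ran from -0.67 to 1.34, genes that favour adipogenesis from -0.062 to 0.026, genes that hold it back from -0.25 to 0.025, mature fat cell genes from -0.12 to 0.18 and lipid handling genes from -0.053 to 0.17. So did the medians of the macrophage, endothelial, mural, mesothelial and myogenic lists, whereas those of the progenitor, thermogenic and lymphocyte lists stayed on their side of 0. With the dim filter, which leaves fewer genes in a list, the lipid handling median was 0.21 and the progenitor median -0.45. The causes of these turns were not tested, and none of these differences of single genes passed the threshold.

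Differences between replicates 1 and 2 correlated over genes with r = 0.76 between scramble and empty vector, -0.21 between shIRF7 and scramble and -0.29 between shIRF7 and empty vector. Scramble and empty vector thus shared differences by number and shIRF7 did not. The numbers are therefore not taken to pair shIRF7 with the controls. The main fit treats the control arrays as separate, so its SE does not account for what controls of the same number share. The replicate block draws on replicates 1 and 2 alone. There the 1 of the 10 genes at an unadjusted p under 0.05 was Cebpa (0.62), not Ebf2 (0.39). Of all 19505 genes 691 reached that level in this fit. Cebpa was above background on 3 of the 8 arrays.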
